A study of Mus musculus with 10 samples.

Results

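The genes described here are 10 targets and feedback inhibitors of fibroblast growth factor (FGF) signalling, from the Sprouty (Spry1, Spry2, Spry4), Spred (Spred1, Spred2), Etv (Etv1, Etv4, Etv5) and dual-specificity phosphatase (Dusp4, Dusp6) families. They are listed by name as genes that the FGF and ERK pathway is known to induce, with no threshold on their values, though the list was drawn up with earlier results of these data known, and were matched by symbol among the 56748 gene identifiers of the count files. Their chromosomes are given from GENCODE on GRCm38. All 10 were found, and all 10 were among the 18163 genes with enough counts to be tested. The study sequenced total RNA from mouse dorsal telencephalon, labelled cortex, at embryonic day E12.5, and compared wild type with Emx2 knockout (KO). Emx2 encodes a homeodomain transcription factor of the cortical primordium, made in a gradient that is highest caudally and medially. There were 5 wild-type and 5 Emx2 KO libraries, both from whole tissue with no further treatment named. The labels give the genotype only as WT or Emx2 KO, and the allele, the strain, the deleted part of the gene and whether each library came from 1 embryo or from pooled embryos are not given in the sources used here. Nothing in the labels says that the libraries of a genotype came from separate animals, so every p-value rests on variation from library to library, part of which may be technical.

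FGF ligands bind receptor tyrosine kinases that act through the Ras, Raf, MEK and ERK proteins. ERK activity raises transcription of the Etv factors, which carry part of the transcriptional response, and of Sprouty, Spred and Dusp genes, whose products dampen the same cascade, so that the RNA of these genes is widely used as a readout of local FGF signalling. In the embryonic forebrain FGFs are made by the rostral patterning centre at the front of the telencephalon, and the Etv, Sprouty and Dusp genes are transcribed around it in a rostral to caudal gradient across the cortical primordium, opposite to the gradient of Emx2.

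In the Emx2 KO cortex 7 of the 10 genes were higher than in wild type, none was lower, and 3 did not pass the test. The 3 Etv factors, both Spred genes, Dusp4 and Spry2 rose, from 1.12-fold for Spred1 to 2.81-fold for Etv1, while Spry1, Spry4 and Dusp6 did not pass. The test was edgeR's quasi-likelihood test with Benjamini-Hochberg adjusted p-values, computed across the whole set of tested genes, called under 0.05, by which 12.9% of all genes were higher and 9.33% were lower. The count of 0 lower members was also 0 at an unadjusted p under 0.05 with edgeR, 0 with DESeq2 and 0 with limma-voom. Those 3 tests put 8, 8 and 8 members higher, Spry4 being the addition in each. Of all 18163 genes tested, 6138 had an unadjusted p under 0.05 with edgeR in either direction. DESeq2 put 2564 genes higher and 1961 lower, and limma-voom put 2508 higher and 1899 lower. All 10 estimates were above 0, against 48.9% of all genes, and the median log2 fold change was 0.57 for the members and -0.01 for all genes tested. The libraries of the 2 genotypes did not overlap for 6 members, each higher in the knockout, against 9.63% of all genes. A rise of at least 1.5-fold that passed the test was found for 5 members and for 3.01% of all genes.

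Library totals ran from 9720840 to 35674113 counts, and members had between 84 and 6951 counts in a library. Emx2 itself was at 146, 129, 109, 137 and 94.6 CPM (read counts scaled to a common library size) in knockout replicates 1 to 5 and at 207, 179, 175, 182 and 186 CPM in wild-type replicates 1 to 5. The groups did not overlap, in the direction of the labels, but the knockout libraries kept Emx2 reads, with a log2 fold change of -0.59 ± 0.11 (SE; edgeR adjusted p = 0.00271). The sample titles end in 3 number codes, 241022, 14922 and 31022, whose meaning is not given. Each code holds both genotypes, but within a code all libraries of 1 genotype are over 20000000 counts and all of the other under it, so code, genotype and library size cannot be told apart in full. Wild-type replicate 1 stood apart for these genes: it was the highest wild-type library for 9 of the 10 members, all but Dusp4, while 24.3% of all genes tested were highest there. Values with and without it are given where it changes a call. In whole tissue, fewer cells of a type and less RNA per cell cannot be told apart.

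**Figure D1:**
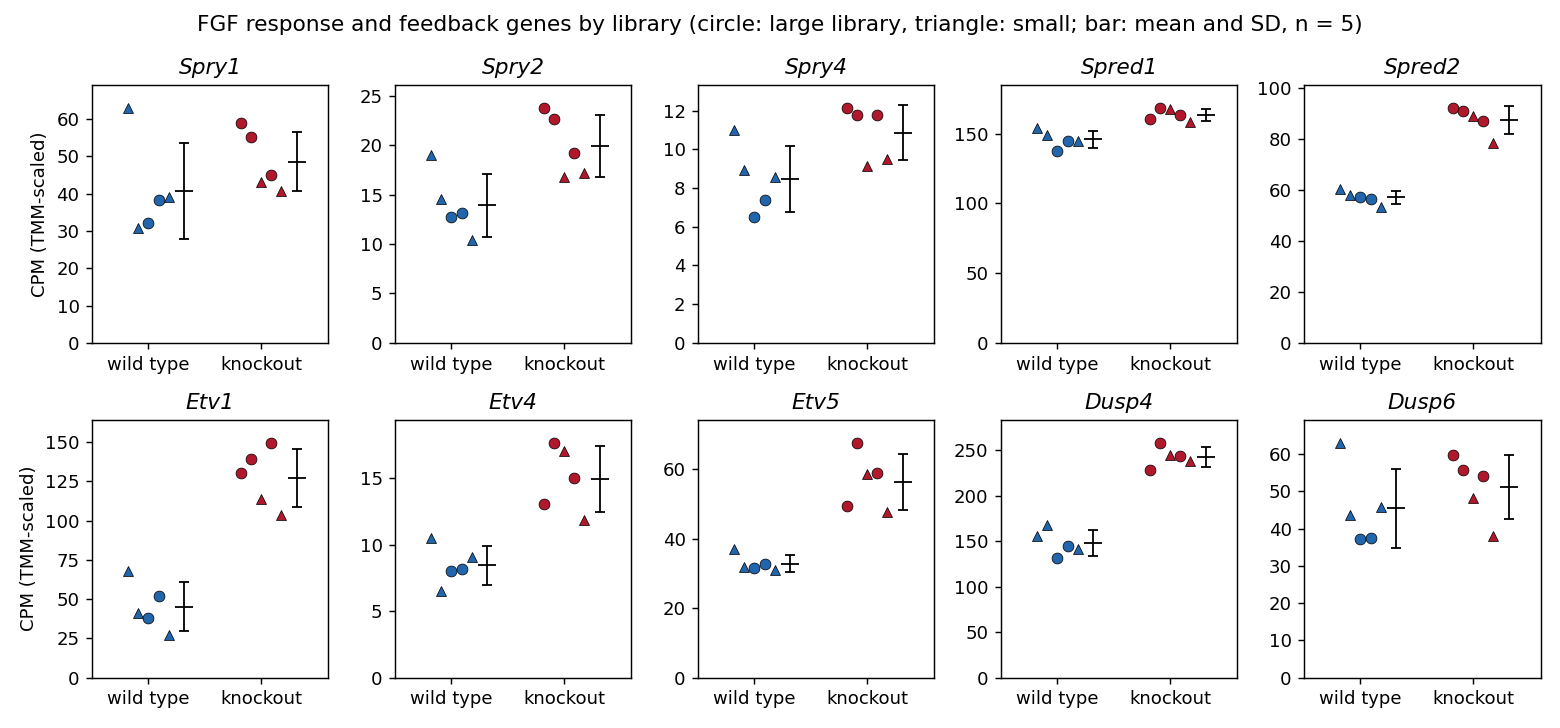
CPM (y axis, from 0 in each panel) of the 10 genes in each wild-type and Emx2 KO library, 1 panel per gene. Points are libraries and bars the mean with SD (n = 5). The groups are apart for Spred1, Spred2, Etv1, Etv4, Etv5 and Dusp4 and overlap for Spry1, Spry2, Spry4 and Dusp6.

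The Etv genes had the 3 largest estimates. They encode the PEA3 group of ETS transcription factors, which carry FGF signals to target genes. Etv1 (ENSMUSG00000004151, chromosome 12), which is also a marker of some cortical projection neurons later in development, was at 130, 139, 114, 149 and 104 CPM in knockout replicates 1 to 5 and at 68.0, 41.3, 38.0, 52.0 and 27.3 CPM in wild-type replicates 1 to 5. Every knockout library was above every wild-type library, and wild-type replicate 1 led its group. The group means were 127 ± 18.6 CPM (knockout) and 45.3 ± 15.4 CPM (wild type; SD, n = 5 each), and the fitted difference was 2.81-fold (95% interval 2.01 to 3.91; edgeR adjusted p = 0.000958).

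Etv4 (ENSMUSG00000017724, chromosome 11) had the lowest wild-type mean per kilobase of exon of the 3. It was at 13.1, 17.6, 17.0, 15.0 and 11.8 CPM in knockout replicates 1 to 5 and at 10.5, 6.54, 8.00, 8.17 and 9.05 CPM in wild-type replicates 1 to 5. The groups did not overlap, though knockout replicate 5 and wild-type replicate 1 came close. Etv4 was 1.77-fold higher (95% interval 1.44 to 2.19; edgeR adjusted p = 0.00118).

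Etv5 (ENSMUSG00000013089, chromosome 16) was at 49.4, 67.5, 58.5, 58.8 and 47.6 CPM in knockout replicates 1 to 5 and at 37.1, 31.7, 31.7, 32.6 and 30.9 CPM in wild-type replicates 1 to 5. The wild-type values lay close together apart from replicate 1, and all lay below the knockout. The rise was 1.72-fold (95% interval 1.50 to 1.98; edgeR adjusted p = 0.00012). Levels per kilobase of exon set different genes only roughly side by side. The length was the union of all annotated exons, 13296 bases for Etv1, 3104 for Etv4 and 4103 for Etv5, and transcript lengths were not measured. On this scale the 3 Etv genes summed to 28.1 ± 3.67 CPM in the knockout and 14.1 ± 2.04 CPM in wild type (SD, n = 5 each). Within that sum the share of Etv1 was 30.2% to 37.7% in the knockout libraries and 16.4% to 29.2% in the wild-type libraries, and the share of Etv5 was 46.2% to 50.5% and 51.5% to 60.3%. Neither range overlapped between the genotypes, so Etv1 made up a larger part of the family's RNA in the knockout.

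Dusp4 and Dusp6 encode dual-specificity phosphatases that remove phosphate from MAP kinases, Dusp6 in the cytoplasm with a preference for ERK and Dusp4 in the nucleus. Dusp4 (ENSMUSG00000031530, chromosome 8) was at 228, 258, 244, 244 and 238 CPM in knockout replicates 1 to 5 and at 156, 167, 131, 144 and 141 CPM in wild-type replicates 1 to 5. The groups were far apart, and this was the single member for which wild-type replicate 1 did not lead its group. Dusp4 was 1.64-fold higher (95% interval 1.50 to 1.80; edgeR adjusted p = 1.28e-05).

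Dusp6 (ENSMUSG00000019960, chromosome 10), often used as a direct readout of FGF signalling, was at 59.9, 55.9, 48.1, 54.0 and 38.1 CPM in knockout replicates 1 to 5 and at 63.0, 43.6, 37.3, 37.4 and 45.9 CPM in wild-type replicates 1 to 5. The groups overlapped, with wild-type replicate 1 above every knockout library and knockout replicate 5 near the lowest wild-type values. Its estimate was 1.14-fold (95% interval 0.89 to 1.45; edgeR adjusted p = 0.470), an interval that takes in both a small fall and a rise. When each library was left out in turn the log2 estimate of 0.19 moved between 0.11 (without wild-type replicate 3) and 0.33 (without wild-type replicate 1), and it passed in none of the 10 fits (edgeR adjusted p from 0.0984 to 0.701). It was 0.12 without wild-type replicate 4 and 0.12 without knockout replicate 1. As a share of the summed Dusp4 and Dusp6 level per kilobase, Dusp4 took 81.3% to 87.7% in the knockout and 73.8% to 81.5% in wild type, ranges that overlapped slightly.

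The Spred genes encode membrane-bound inhibitors that, with neurofibromin, limit Ras. Spred2 (ENSMUSG00000045671, chromosome 11) was at 92.0, 91.1, 89.2, 86.9 and 78.5 CPM in knockout replicates 1 to 5 and at 60.3, 58.0, 57.2, 56.6 and 53.4 CPM in wild-type replicates 1 to 5. Both groups were tight and far apart. The rise was 1.53-fold (95% interval 1.42 to 1.65; edgeR adjusted p = 9.69e-06), the smallest p of the 10 genes.

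Spred1 (ENSMUSG00000027351, chromosome 2), the Ras inhibitor whose loss causes Legius syndrome in people, was at 160, 168, 167, 163 and 158 CPM in knockout replicates 1 to 5 and at 154, 149, 138, 145 and 145 CPM in wild-type replicates 1 to 5. The groups did not overlap, but the gap between them was small. Its 1.12-fold rise (95% interval 1.06 to 1.19; edgeR adjusted p = 0.00778) was the smallest that passed. The share of Spred2 in the summed level per kilobase of the 2 genes was 42.1% to 45.8% in the knockout and 35.1% to 37.9% in wild type, with no overlap.

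The Sprouty genes encode cytoplasmic inhibitors of receptor tyrosine kinase signalling to ERK, and 1 of the 3 passed. Spry2 (ENSMUSG00000022114, chromosome 14) was at 23.7, 22.6, 16.8, 19.2 and 17.2 CPM in knockout replicates 1 to 5 and at 19.0, 14.5, 12.7, 13.1 and 10.4 CPM in wild-type replicates 1 to 5. Wild-type replicate 1 lay among the knockout values, and 3 knockout libraries were above it. Spry2 was 1.44-fold higher (95% interval 1.15 to 1.80; edgeR adjusted p = 0.0264), but it did not pass when any of knockout replicates 1 and 2 or wild-type replicates 3, 4 and 5 was left out (edgeR adjusted p from 0.0524 to 0.0681).

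Spry4 (ENSMUSG00000024427, chromosome 18) was at 12.1, 11.7, 9.13, 11.8 and 9.48 CPM in knockout replicates 1 to 5 and at 11.0, 8.93, 6.51, 7.39 and 8.54 CPM in wild-type replicates 1 to 5. The groups overlapped, again through wild-type replicate 1, and 3 knockout libraries were above it. Its estimate was 1.30-fold (95% interval 1.05 to 1.62; edgeR adjusted p = 0.0773). It passed with DESeq2 (adjusted p = 0.0486), with limma-voom (0.0161), with the title code as a block in edgeR (0.0182) and without wild-type replicate 1 in edgeR (0.0230). That was the 1 of the 10 fits leaving out a library in which Spry4 passed (edgeR adjusted p up to 0.179). Nor did it pass in edgeR with library size as a block (adjusted p = 0.0926), upper-quartile scaling (0.108) or total counts (0.119).

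Spry1 (ENSMUSG00000037211, chromosome 3) was at 58.8, 55.1, 43.2, 44.9 and 40.7 CPM in knockout replicates 1 to 5 and at 62.8, 30.9, 32.2, 38.4 and 39.0 CPM in wild-type replicates 1 to 5. Wild-type replicate 1 was above all knockout libraries, and the other 4 wild-type libraries were below all of them. The estimate was 1.20-fold (95% interval 0.895 to 1.62; edgeR adjusted p = 0.377), and without wild-type replicate 1 the log2 estimate went from 0.27 to 0.48 and passed (edgeR adjusted p = 0.0225). It passed in that 1 of the 10 such fits, and was as low as 0.18 without wild-type replicate 3. Spry1 is the only member whose exons overlap another annotated gene, the antisense Gm42922, which had at most 1.36% of Spry1's counts in any library. The shares of Spry1, Spry2 and Spry4 in their summed level per kilobase overlapped between the genotypes, at 57.0% to 59.9% against 54.6% to 66.5% for Spry1.

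Per kilobase of exon, the 10 genes spanned a wide range of levels in wild-type cortex, in an order that did not follow their families. This order rests on the lengths of the exon unions. Dusp4 came first at 54.0 ± 5.11 CPM per kilobase (SD, n = 5), above 96.7% of all genes tested, then Spred1 at 21.5 ± 0.883, Dusp6 at 14.5 ± 3.35, Spry1 at 14.0 ± 4.44 and Spred2 at 12.4 ± 0.543 CPM per kilobase. Etv5 followed at 8.00 ± 0.599, Spry2 at 6.68 ± 1.53, Etv1 at 3.41 ± 1.16, Etv4 at 2.72 ± 0.469 and Spry4, the lowest, at 1.78 ± 0.358 CPM per kilobase. The wild-type libraries of neighbours in this order were apart only between Dusp4 and Spred1, between Spred1 and Dusp6 and between Spred2 and Etv5, and the other neighbours overlapped. In the knockout Spred2 stood next after Dusp4 and Spred1 at a mean of 19.0 CPM per kilobase, above Spry1 at 16.7 and Dusp6 at 16.3, and Etv1, at 9.58, was level with Spry2 at 9.53. Summed over all 10 genes, the level per kilobase was 187 to 221 CPM in the knockout libraries and 124 to 163 CPM in the wild-type libraries.

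**Figure D2:**
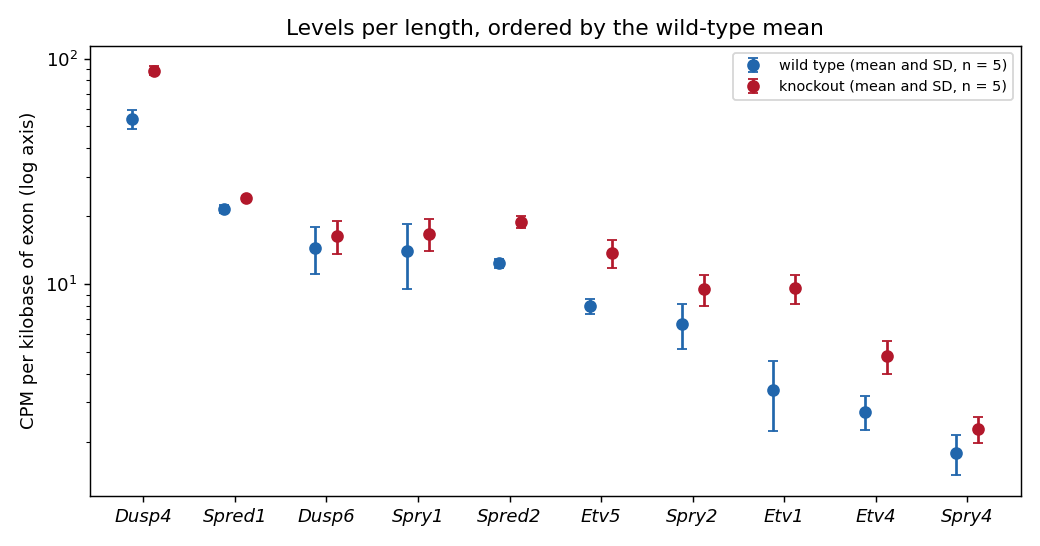
CPM per kilobase of exon (log axis) of each gene, ordered by the wild-type mean from Dusp4 to Spry4. Points are the mean of each genotype and bars the SD (n = 5). Etv1 lies in eighth place in wild type at 3.41 and at 9.58 CPM per kilobase in the knockout.

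The difference was also set out within title codes and within library sizes. The knockout mean was above the wild-type mean in each of the 3 codes for 10 of 10 members, against 26.6% of all genes. For Etv1 the ratio of means was 2.47 in code 241022, 2.42 in code 14922 and 5.48 in code 31022, which holds 1 library of each genotype, and for Dusp4 it was 1.50, 1.75 and 1.73. For Dusp6 it was 1.09, 1.15 and 1.18. With 2 libraries of each genotype, 2 members were higher in code 241022 alone (Spred2 and Dusp4; 1.31% of all genes) and 5 in code 14922 alone (Spred2, Etv1, Etv4, Etv5 and Dusp4; 5.28% of all genes). A test of whether the genotype difference itself differed between these 2 codes (edgeR interaction) passed for no member (0 members by adjusted p, 0 at an unadjusted p under 0.05; 1.53% of all genes by adjusted p).

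In the larger libraries more members passed. Among the 5 libraries over 20000000 counts (knockout replicates 1, 2 and 4, wild-type replicates 3 and 4) 10 of 10 members were higher, against 9.51% of all genes. Among the 5 smaller ones (knockout replicates 3 and 5, wild-type replicates 1, 2 and 5) 3 members were, Spred2, Etv5 and Dusp4, against 1.90% of all genes. Spry1 was at a log2 fold change of 0.59 in the large libraries and -0.08 in the small ones, Spry4 at 0.77 and -0.03, and Dusp6 at 0.60 and -0.24. These are the 3 genes that did not pass over all libraries, and the small set holds both wild-type replicate 1 and knockout replicate 5. Knockout replicate 5 was the lowest knockout library for 7 of the 10 members and for 22.5% of all genes tested. The small minus large difference in log2 fold change was -0.84 for Dusp6 (edgeR interaction, adjusted p = 0.280) and -0.80 for Spry4 (edgeR interaction, adjusted p = 0.264). It passed adjustment for 0 members and for 0.0385% of all genes, and these 2 members were the ones at an unadjusted p under 0.05. Libraries of like size but different genotype never share a title code, so size, code and single libraries cannot be told apart in these differences.

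**Figure D3:**
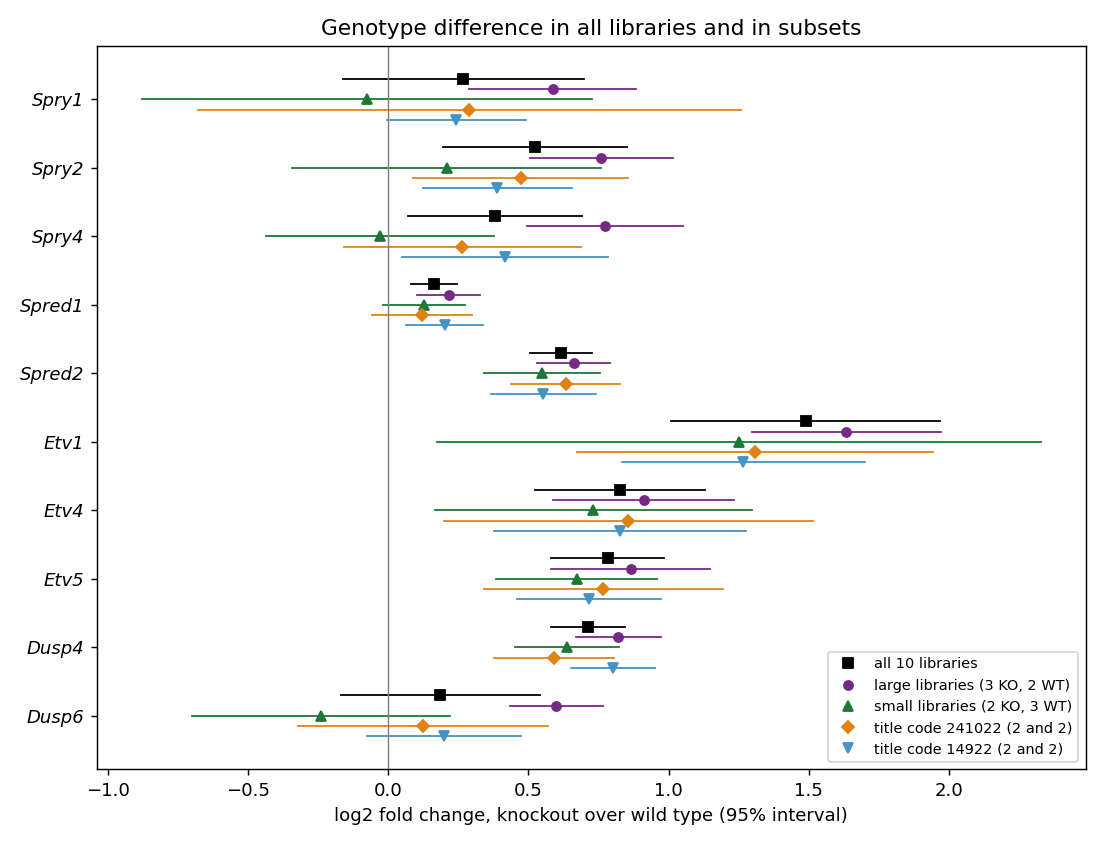
Log2 fold change, knockout over wild type, of each gene with its 95% interval (x axis), over all 10 libraries and in the large, the small, the code 241022 and the code 14922 libraries alone. Spred2, Etv1, Etv4, Etv5 and Dusp4 have positive estimates in each subset, the lowest 0.55, while those of Spry1, Spry4 and Dusp6 are below 0 in the small libraries.

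**Figure D4:**
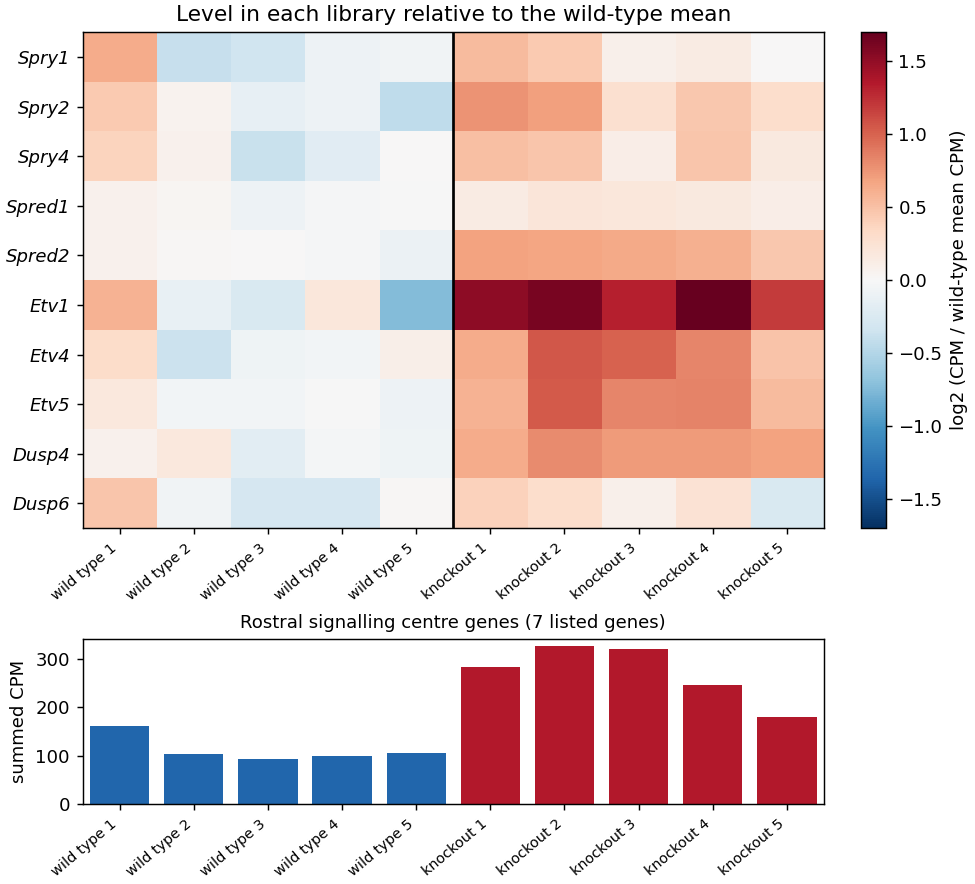
Top, log2 level of each gene in each library relative to its wild-type mean (colour scale). Bottom, summed CPM of 7 listed rostral signalling centre genes in the same libraries (bars from 0). Wild-type replicate 1 is at 160 CPM, and the other wild-type libraries are at 92.2 to 106 CPM. The knockout libraries are at 180 to 326 CPM, with replicate 3 at 320 CPM.

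Start-site sequences are shown for Etv5, Spry2 and Dusp6, a gene that rose with separate groups, one that rose with overlapping groups and one that did not pass, because these are the members whose windows hold a searched motif. RefSeq's promoter windows on GRCm38.p6, 250 bases before to 50 after a start, were on hand for 7 members in 9 windows, with none used for Spry4, Etv4 and Dusp4. The windows lie at chr16:22438319-22438618 (minus strand) for the second of the Etv5 starts, at chr14:105896770-105897069 (minus strand) for Spry2 and at chr10:99262981-99263280 (plus strand) for Dusp6, and are written along the gene's own strand. Capitals mark TGAATG or its reverse complement, the core of the octamers bound by Capicua, a repressor that ERK inactivates, in Etv5 and Dusp6, and CCGGAA, the core of sites bound by ETS factors such as the Etv proteins, in Spry2.
Etv5: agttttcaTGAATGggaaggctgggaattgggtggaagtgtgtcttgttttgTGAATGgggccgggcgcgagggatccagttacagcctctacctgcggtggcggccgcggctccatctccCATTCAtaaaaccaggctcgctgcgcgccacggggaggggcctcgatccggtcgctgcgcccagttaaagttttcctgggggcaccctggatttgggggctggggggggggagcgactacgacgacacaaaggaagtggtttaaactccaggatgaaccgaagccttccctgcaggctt
Spry2: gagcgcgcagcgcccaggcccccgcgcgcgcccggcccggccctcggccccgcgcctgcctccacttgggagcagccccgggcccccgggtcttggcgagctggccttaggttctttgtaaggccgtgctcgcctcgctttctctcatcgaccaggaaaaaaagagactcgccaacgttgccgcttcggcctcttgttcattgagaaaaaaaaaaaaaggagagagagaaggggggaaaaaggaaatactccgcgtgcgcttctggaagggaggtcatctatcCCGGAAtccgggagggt
Dusp6: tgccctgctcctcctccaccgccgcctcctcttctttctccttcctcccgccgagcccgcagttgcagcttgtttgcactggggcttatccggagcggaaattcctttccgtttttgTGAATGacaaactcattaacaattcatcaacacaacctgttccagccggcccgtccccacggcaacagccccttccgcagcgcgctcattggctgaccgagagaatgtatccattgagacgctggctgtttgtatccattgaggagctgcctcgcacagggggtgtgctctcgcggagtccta
Searched on both strands, TGAATG was in 2 of the 9 member windows and in 12.7% of 32851 windows of all genes. The Etv5 window held it 3 times, starting 242, 198 and 129 bases before the start, and the Dusp6 window once, 133 bases before. This core was chosen after the sequences had been seen. The Capicua octamers TGAATGAA and TGAATGGA, which contain the core, were in none of the 9 windows and in 1.30% and 1.21% of all. CCGGAA was in 1 of the 9 windows, that of Spry2, and in 14.9% of all, the longer ETS site CCGGAAGT, which contains it, in none and in 3.89%, and the homeodomain site TAATTA in none and in 5.29%. A match is a stretch of letters and not a measured binding site.

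Upstream of the members, ligand and receptor genes changed in both directions. Of 14 listed FGF ligand genes 9 were tested, 3 of them higher and 1 lower. Counts in this and the later lists stand beside 12.9% of all genes higher and 9.33% lower. Fgf15, a ligand of the rostral telencephalon, averaged 99.7 ± 40.1 CPM in knockout libraries and 17.9 ± 6.25 CPM in wild-type ones (SD, n = 5 each), which is 2.50 ± 0.35 on the log2 scale (SE; edgeR adjusted p = 0.00101). Fgf3 and Fgf9 were the other higher ones (2.72 and 1.39), and Fgf7 was lower at -0.78, a call that was lost in 7 of the 10 fits that each left out a library. Fgf8, the principal organiser ligand, did not pass at 3.30 ± 1.36 against 2.76 ± 0.737 CPM (log2 fold change 0.28 ± 0.26; edgeR adjusted p = 0.509). Without knockout replicate 1, at 5.71 CPM its highest library, the Fgf8 estimate changed sign to -0.03. Fgf17 was at 24.7 ± 3.74 and 18.3 ± 7.69 CPM (0.43 ± 0.28; edgeR adjusted p = 0.319), with an estimate of 0.23 without wild-type replicate 2 and 0.64 without wild-type replicate 1. Fgf18 was at 1.38 ± 0.376 and 1.45 ± 0.475 CPM (-0.05 ± 0.26; edgeR adjusted p = 0.931), an estimate that ran from -0.21 to 0.09 when each library was left out in turn.

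Among 7 receptor and co-receptor genes 1 was higher and 2 were lower. Fgfr1, the main receptor of the rostral telencephalon, was at 206 ± 12.6 CPM in the knockout and 168 ± 10.4 CPM in wild type (log2 fold change 0.29 ± 0.05; edgeR adjusted p = 0.00168). Fgfr3, which is highest in the caudal cortex, fell by 1.30 ± 0.08 on the log2 scale, from 447 ± 25.6 to 182 ± 23.5 CPM (edgeR adjusted p = 1.72e-06). Fgfr2 fell by 0.24 ± 0.06 on the log2 scale, from 85.7 ± 5.75 to 72.9 ± 4.64 CPM (edgeR adjusted p = 0.0103). Both receptor falls and the Fgfr1 rise passed in all 10 fits that each left out a library.

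The kinases and adaptors between receptor and nucleus moved little as a list. Of 22 such genes 4 were higher and 2 were lower, against 12.9% and 9.33% of all genes, with a median log2 fold change of 0.01. Mapk3, which encodes an ERK kinase, had a log2 fold change of -0.02, with a 95% interval of 0.899 to 1.08 in fold. Grb2, the adaptor that brings the Ras activator Sos to receptors, rose by 0.31 ± 0.04 (edgeR adjusted p = 0.000423). Frs3, a docking protein for FGF receptors, rose by 0.65 ± 0.12 (edgeR adjusted p = 0.00173), and Gab1, another docking protein, fell by 0.35 ± 0.06 (edgeR adjusted p = 0.000762). Map2k2 (0.31), which encodes a MEK kinase, and Ksr1 (0.32), a scaffold of the cascade, were the other higher genes and Braf (-0.22), which encodes a Raf kinase, the other lower one. Ksr1 was lost in 6 of the 10 fits that each left out a library.

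Feedback genes outside the 10 included a further Spred gene and a further phosphatase that rose. Of 11 listed genes 10 were tested, 4 higher and 1 lower, with a median log2 fold change of 0.35, and Spry3 was not analysed here. Spred3, the remaining Spred gene, was at 73.9 ± 12.4 CPM in the knockout and 46.6 ± 4.41 CPM in wild type, a rise of 0.66 ± 0.11 on the log2 scale (edgeR adjusted p = 0.00115), so all 3 Spred genes were higher. Dusp1, a nuclear phosphatase of several MAP kinases, rose by 0.39 ± 0.09 (edgeR adjusted p = 0.00693). Flrt3, a membrane protein that binds FGF receptors and also guides migrating cells, fell by 0.99 ± 0.11, from 190 ± 28.0 to 95.5 ± 11.0 CPM (edgeR adjusted p = 0.000118). Il17rd (0.56), the FGF receptor inhibitor also called Sef, and Cnpy1 (1.09) were the other higher genes. Il17rd was at 115 CPM in wild-type replicate 1 and 63.5 to 75.0 CPM in the other wild-type libraries, and was lost in 3 of the 10 fits that each left out a library.

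Of 12 other genes known to respond to ERK 10 were tested, 3 higher and 1 lower, with a median log2 fold change of 0.14. Ccnd1, the G1 cyclin, was at 347 ± 64.6 CPM in the knockout and 194 ± 30.3 CPM in wild type (log2 fold change 0.84 ± 0.15; edgeR adjusted p = 0.00238). Mcl1, a survival protein, rose by 0.14 ± 0.03 (edgeR adjusted p = 0.00477), and Epha4, a receptor for ephrins, fell by 0.60 ± 0.07 (edgeR adjusted p = 6.98e-05). Myc (0.28) was the other higher gene, and it was lost in 6 of the 10 fits that each left out a library. None of 8 tested immediate early genes, which ERK and many other stimuli induce within minutes, passed in either direction with edgeR, with DESeq2 or with limma-voom, and 0 had an unadjusted p under 0.05 with edgeR. Their summed level was 54.8 to 72.6 CPM in the knockout and 57.0 to 70.5 CPM in wild type. Some genes are in both the immediate early list and that of the 12 other ERK genes. Of the genes beyond the members, Fgf3, Fgf7, Fgf9, Mapk3, Map2k2, Ksr1, Braf, Il17rd, Cnpy1, Myc and Sp8 were named after their values had been seen.

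**Figure D5:**
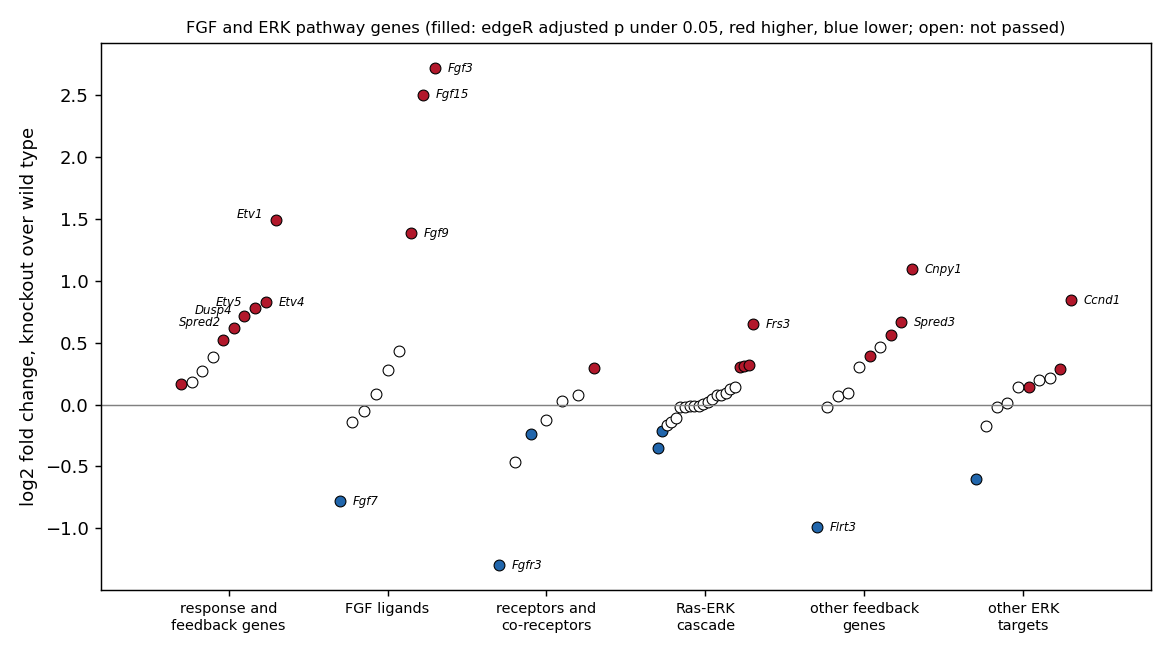
Log2 fold change, knockout over wild type (y axis), of the genes tested in 6 lists, 1 column of points per list. Filled points passed edgeR's adjusted p under 0.05, red higher and blue lower, and open points did not pass. The 10 response and feedback genes are all above 0, and the 22 cascade genes have a median of 0.01.

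Other cell groups and tissue regions differed between the genotypes in the same libraries, and their part in the values of the 10 genes was not tested. Of 7 rostral signalling centre genes 3 were higher (Fgf3, Fgf15 and the transcription factor gene Sp8) and 0 lower, and their summed level was 180 to 326 CPM in the knockout and 92.2 to 160 CPM in wild type. The Fgf genes of this list are also in the FGF ligand list. Wild-type replicate 1, the highest wild-type library for 9 members, was the one at 160 CPM, and the other 4 were at 92.2 to 106 CPM. Knockout replicate 3, at 320 CPM, was the highest knockout library for 0 members and the lowest for 2. Knockout replicate 5, at 180 CPM, was the lowest for 7. Sp8 alone was at 84.6 CPM in wild-type replicate 1 and at 44.6 to 52.8 CPM in the other 4. Without wild-type replicate 1 the count of members higher went from 7 to 9, and that of the rostral list stayed at 3. Over all genes it went from 2345 of 18163 tested to 2068 of 19076 tested.

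Dorsal telencephalic genes, which define the labelled tissue, were present in all libraries at 2464 to 2885 CPM in the knockout and 2057 to 2335 CPM in wild type, with 5 of 7 higher. The dorsal count was 6 without knockout replicate 3 or wild-type replicate 3, and 4 without any other library. Subpallial genes, of the neighbouring ventral telencephalon, were 5 of 10 higher and 0 lower, at 133 to 597 CPM against 52.8 to 246 CPM. That count moved between 3 and 9 when each library was left out, with the 9 reached without wild-type replicate 2. It was 3 without knockout replicate 2 or 3, and without wild-type replicate 1, 3, 4 or 5. Radial glial genes were 7 of 9 higher (3384 to 3832 against 2936 to 3036 CPM) and neuronal genes 5 of 8 higher (4138 to 5202 against 2830 to 4362 CPM), 3 of 8 without wild-type replicate 5. The radial glial and neuronal lists each share a gene with the dorsal list. Cortical hem genes were 8 of 9 lower (98.4 to 211 against 318 to 475 CPM) and choroid plexus genes 6 of 7 lower (57.3 to 92.8 against 254 to 306 CPM). Wild-type replicate 1 had the most hem RNA of the wild-type libraries, 475 CPM, and the least neuronal RNA, 2830 CPM. Wild-type replicate 5 came next in both, at 465 and 3173 CPM. It was the lowest wild-type library for Spry2, Spred2, Etv1 and Etv5.

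Of the non-neural lists, 1 of 7 meningeal genes was lower (563 to 768 CPM in the knockout, 532 to 753 CPM in wild type), a call lost in 8 of the 10 fits that each left out a library. No gene of the endothelial (7 tested), microglial (6) or blood (6) lists passed with edgeR, where 3, 1 and 0 were lower at an unadjusted p under 0.05, while DESeq2 called 0, 1 and 0 lower and limma-voom 0 of each. Without knockout replicate 1, 4 endothelial and 2 microglial genes were lower with edgeR. Their summed levels were 163 to 280 against 202 to 271 CPM, 35.6 to 50.9 against 39.6 to 52.5 CPM and 1925 to 6190 against 1916 to 4703 CPM. No listed gene of any of these lists was at 0 in all libraries.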

How the data were processed

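The deposited files hold raw read counts per gene, 1 file per library, from total RNA of 10 cortex samples at E12.5 (5 wild type, 5 Emx2 KO). Per the labels' protocols, total RNA came from a NucleoSpin kit and library preparation was Illumina's standard one. Per the submitters' processing notes, bcl2fastq 2.20, STAR 2.7.8a and featureCounts 1.6.3-p1 were used and the builds GRCm39 and rn6 are named. The strand setting, counting options and annotation release are not given in the sources used here. Reads of Spry1 and its antisense gene are therefore not separated with certainty.

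Counts were analysed in R 4.3.3 with edgeR 4.0.16: filterByExpr with its minimum count of 10, TMM scaling, and a robust quasi-likelihood fit on genotype alone, with Benjamini-Hochberg adjustment across the 18163 tested genes. The code was tested on simulated data. CPM values use the TMM-scaled library sizes, and the SE is that of the fitted log2 fold change. Symbols and exon-union lengths came from GENCODE M21 on GRCm38, by identifier, for 52073 and 52125 of 56748 identifiers. A different annotation release changes per-kilobase levels but not fold changes. Start-site windows came from RefSeq (GRCm38.p6). DESeq2 1.42.0, limma-voom (limma 3.58.1), other scalings and filters, blocks for title code and library size, subsets of libraries and leaving out each library were run as alternatives. The members and the gene lists were chosen with earlier results of these data known. The naming rule took the 10 members, Emx2, Fgf8, Fgf15, Fgf17, Fgf18, Fgfr1, Fgfr2, Fgfr3 and, from each of the 3 other pathway lists, up to 3 genes past the threshold with the smallest p. Groups of a title code or size are not the study's groups.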

Additional observations from a re-analysis of the deposited data

Results flagged for a closer look

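In 54 groups of 5 libraries (27 named genes in each genotype), 3 had a library whose distance to its nearest neighbour exceeded 0.71 of the group's range, and chance gives about 1 in 20 such groups. Spry1 was at 62.8 CPM in wild-type replicate 1, and the next wild-type library was at 39.0 CPM, a distance of 0.747 of the range. Etv5 was at 37.1 CPM in the same library and at 32.6 CPM in the next one, 0.720 of the range. Fgf8 was at 5.71 CPM in knockout replicate 1 and at 3.05 CPM in the next knockout library, 0.817 of the range. Without that library the Fgf8 log2 fold change went from 0.28 to -0.03. Without wild-type replicate 1 Spry1 passed (log2 fold change 0.48; edgeR adjusted p = 0.0225), and Etv5 passed with and without it.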

How the results depend on the processing

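Of 250 values of the members' log2 fold changes under alternatives, 222 kept their direction and side of the threshold, 17 lost the call, 8 gained it and 3 changed sign. All sign changes came with the 5 small libraries alone, where Spry1 was at -0.075, Spry4 at -0.030 and Dusp6 at -0.24. Members higher, 7 over all libraries, were 2 with title code 241022 alone and 5 with code 14922 alone. They were 3 with small libraries alone and 10 with large libraries alone. These subsets all hold fewer samples than the full set. When each library was left out in turn, 6 to 9 members were higher. The 9 came without wild-type replicate 1, and the cause was not tested. Spred1, Spred2, Etv1, Etv4, Etv5 and Dusp4 passed in all 10 of those fits, and no alternative put a member lower by the test. All genes higher, 2345, were 243 with code 241022 alone, 1007 with code 14922 alone, 335 with small libraries alone and 1349 at an adjusted p under 0.01. All genes lower, 1694, were 287, 703, 291 and 832 in the same order. Leaving out each library gave 1783 to 2303 higher and 1289 to 1759 lower. Calls were 58.1% higher with TMM, 45.8% with upper-quartile scaling and 42.0% with total counts, while the members higher stayed at 7. No paired analysis was possible because the replicate numbers used here follow the order of deposit and pair no libraries. The title code as a block, which groups libraries without pairing them, put 8 members higher and 2297 of all 18163 genes tested. Spry4 and Etv4 had the fewest counts of the members, 84 and 89 in their lowest libraries. With library size as a block in edgeR, Etv4 passed (adjusted p = 0.00219) and Spry4 did not (0.0926). The effect of depth on their calls, apart from title code and single libraries, was not tested.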
